A study of Mus musculus with 10 samples.

Results

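E14, a diploid mouse embryonic stem cell line, was compared with mouse embryonic fibroblasts (MEF) on Affymetrix GeneChip 430 2.0 arrays, using every probe set that the platform table pairs with exactly 1 gene symbol. The comparison used 5 of the 10 arrays of the series and 34945 of 45101 probe sets, of which 23911 passed a filter on dim signal, and these gave 13251 tested genes with 1 probe set each. The 3 E14 arrays held RNA of wild-type male cells of 129/Sv background at passage 17, all of the same line, so their spread holds no difference between stem cell lines. The 2 MEF arrays held RNA of wild-type, male fibroblasts of a d13.5 embryo of B6D2F1 background at passage 2, and the labels do not say if they shared an embryo. Both cell types are diploid, carried no transgene per the labels, and were sorted on Hoechst 33342, a DNA stain used at 15 µg/ml, from the 2n peak, which holds cells in G1 or G0. Cell type, strain and passage differ together between the groups and cannot be told apart, and their culture medium is not given in the sources. The other 5 arrays, of androgenetic haploid stem cells, entered the filter, the choice of probe set and the estimate of the spread of each gene.

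Embryonic stem cells are the cultured form of the inner cells of the blastocyst. They can form every tissue of the embryo, grow as compact epithelial colonies, and hold this state through a small network of transcription factors around Oct4 (Pou5f1), Sox2 and Nanog. Embryonic fibroblasts are mesenchymal cells that migrate singly, pull on their surroundings through actin stress fibres, and secrete collagen and other proteins of the extracellular matrix. In culture an early fibroblast passage is a mixture that can also hold macrophages, muscle precursors and other cells of the embryo.

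A gene was called higher or lower in E14 when its Benjamini-Hochberg adjusted p from limma lay below 0.05 and its log2 signal differed by at least 1, which is 2-fold. Of 13251 genes, 5581 (42.1%) were called, 2764 of them higher (20.9%) and 2817 lower (21.3%) in E14. The median difference over all genes was 0.08 log2 units, and the median size of a called difference was 2.02. Log2 differences of at least 4 (16-fold) were measured for 350 genes that were higher and 556 that were lower. Those of at least 6 (64-fold) numbered 111 and 148. On 9797 genes (73.9%) the 3 E14 arrays did not overlap the 2 MEF arrays, so non-overlap alone distinguishes few genes here. An exact permutation test of 3 against 2 arrays has 10 splits and cannot give a two-sided p below 0.1, so all tests rest on the fit across genes. Where both MEF arrays, or all E14 arrays, lay below their own array medians, the dimmer group was put at those medians and the fold is given as "at least". This applied to 936 genes called higher and 695 called lower, and the log2 difference printed beside such a bound contains background on its dim side. The counts above by log2 difference contain it too, so the bound of a counted gene can lie below 16-fold. A gene that passed the filter only through its brighter group had to differ, so counts within a list describe the genes that passed. In bulk RNA, fewer cells of a type and less RNA per cell cannot be told apart.

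**Figure D1:**
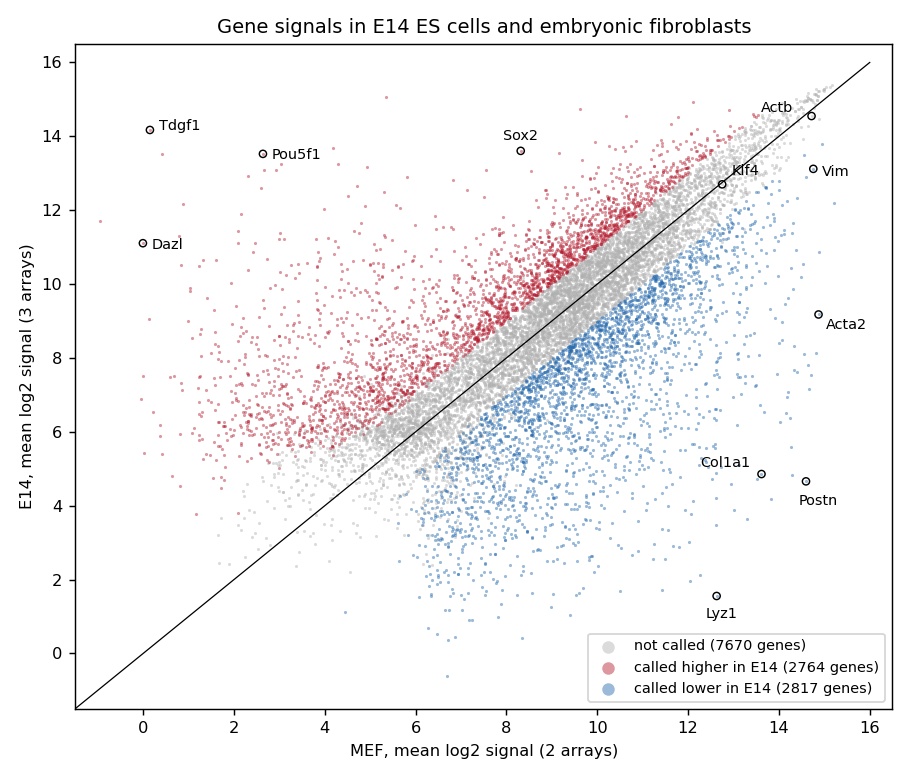
Mean log2 signal of each of 13251 tested genes in MEF (2 arrays, horizontal axis) and E14 (3 arrays, vertical axis), with genes called higher in E14 in red, called lower in blue and not called in grey, and the line of equal signal in black. Tdgf1, Pou5f1 and Dazl lie in the upper left, Lyz1, Postn and Col1a1 in the lower right, and Klf4 and Actb on the line.

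Array medians lay between 60.3 and 68.0 on the linear scale in the 5 arrays. The ratio of 3′ to 5′ control signal, a sign of RNA integrity, was 0.758 to 0.832 in E14 and 0.718 to 0.743 in MEF for Gapdh. It was 1.26 to 1.68 against 1.06 to 1.25 for Actb and 2.24 to 3.98 against 1.66 to 1.70 for Pcx, both higher in E14, while for Tfrc the MEF arrays gave 3.92 and 1.09 and lay on either side of E14 (1.47 to 2.20). The part of these ratios in the results was not tested. Across the tested genes Pearson's r of log2 signal averaged 0.938 between E14 arrays, 0.969 between the MEF arrays and 0.652 between E14 and MEF arrays. E14 replicate 3 stood apart from the other E14 arrays: it differed by at least 1 log2 unit from the mean of replicates 1 and 2 on 20.4% of genes, with 1110 genes above and 1587 below. Among 6417 genes whose signal lay above 8 log2 units on all 5 arrays, it did so on 7.85%, while E14 replicate 2 differed from replicate 1 that much on 0.109% and MEF replicate 2 from MEF replicate 1 on 0.0779%. Without it 2850 genes were higher and 2692 lower, and 5087 of the 5581 calls were made in the same direction. By list, the share of genes on which it departed this far ran from 0 of 40 (mitosis) to 73.3% (germline genes). What set this array apart was not tested. Where leaving out 1 array moved a count, a bound or a difference given without a bound by over 1.5 times, the value without it follows.

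The pluripotency network gave the clearest separation. Of 32 tested genes in a list of pluripotency factors, 31 were higher in E14 and 1 was not called, against 20.9% higher over all genes, and their median difference was 6.31 log2 units against 0.08. The summed signal of the list was 171265 to 235936 on the E14 arrays and 11468 to 11550 on the MEF arrays. E14 replicate 3 gave the highest sum and lay at least 1 log2 unit above the other E14 arrays on 9 of the 32 genes and below on 1. Tdgf1, which encodes the Nodal co-receptor Cripto, had the largest difference of any gene. Its log2 signals were 14.28, 14.34 and 13.90 on the E14 arrays and 0.04 and 0.26 on the MEF arrays, a difference of 14.03 ± 0.16 (SE, adjusted p = 1.6e-13) and at least 292-fold. Pou5f1, the POU-domain factor at the centre of the network, gave 13.39, 13.35 and 13.84 against 2.63 and 2.65, at least 186-fold higher in E14 (difference 10.89 ± 0.17, adjusted p = 2.8e-12). Nanog, a homeodomain factor, gave 13.45, 13.30 and 13.01 against 4.15 and 4.41, at least 154-fold higher. In all 3 genes every MEF array lay below its median and every E14 array more than 6 log2 units above it.

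The sequence upstream of Nanog is shown because it holds, ahead of the start, the octamer-like core TTTGCAT that POU factors such as Pou5f1 can bind. In the 250 bases before the annotated start, on either strand, TTTGCAT was found in 3 of 21 pluripotency promoters, in 3 of 19 promoters of the p53 list, and in 324 of 10652 promoters of tested genes (3.04%). Its share was thus no higher among pluripotency factors than in that other list. The stretch is chr6:122707289-122707488, plus strand, from RefSeq on GRCm38.p6, with the match in capitals, 75 bases before the start.

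Nanog: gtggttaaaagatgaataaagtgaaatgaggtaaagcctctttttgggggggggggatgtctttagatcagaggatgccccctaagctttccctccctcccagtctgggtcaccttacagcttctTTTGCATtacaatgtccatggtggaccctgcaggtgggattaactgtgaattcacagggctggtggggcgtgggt

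Sox2, the SRY-box partner of Pou5f1, lay above the array medians in fibroblasts too. Its signals were 13.41, 13.70 and 13.71 in E14 and 7.99 and 8.64 in MEF, a difference of 5.29 ± 0.20 (adjusted p = 8.17e-09). Zfp42 (Rex1), a zinc finger factor of naive cells, was at least 139-fold higher, Sall4 at least 123-fold, Trim71 at least 71.8-fold and the orphan nuclear receptor gene Esrrb at least 40.5-fold. Klf4, a zinc finger factor of the reprogramming set that fibroblasts also use, was the 1 gene of the list that was not called. It gave 12.82, 12.60 and 12.69 in E14 and 12.75 on both MEF arrays (difference -0.05 ± 0.30, adjusted p = 0.898). The E14 signals thus lay on both sides of the MEF values. Fbxo15, an F-box gene under Oct4 and Sox2 control, was among the 12 genes with the largest differences, at least 153-fold higher. So were 3 genes that the pluripotency list does not hold: Trap1a (at least 187-fold), the MAGE gene Mageb16 (at least 72.7-fold) and Morc1 (at least 53.1-fold).

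Genes that mark the later, primed epiblast were also mostly higher in E14. Of 16 tested, 12 were higher, 2 lower and 2 not called, with a median difference of 2.98. The lowest of the list was Cdh2 (difference -3.41), described below with the surface markers. Otx2, a homeobox factor of epiblast and forebrain, gave 10.30, 10.30 and 10.85 against 1.51 and 0.96, at least 22.6-fold higher. Dnmt3b, a de novo DNA methyltransferase, gave 12.12, 11.72 and 13.82 against 7.18 and 7.06 (difference 5.44 ± 0.49, adjusted p = 3.41e-06, and 4.80 without E14 replicate 3). On 7 of the 16 genes E14 replicate 3 lay at least 1 log2 unit above replicates 1 and 2, and on none below. Without that array 12 were higher and 3 lower.

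**Figure D2:**
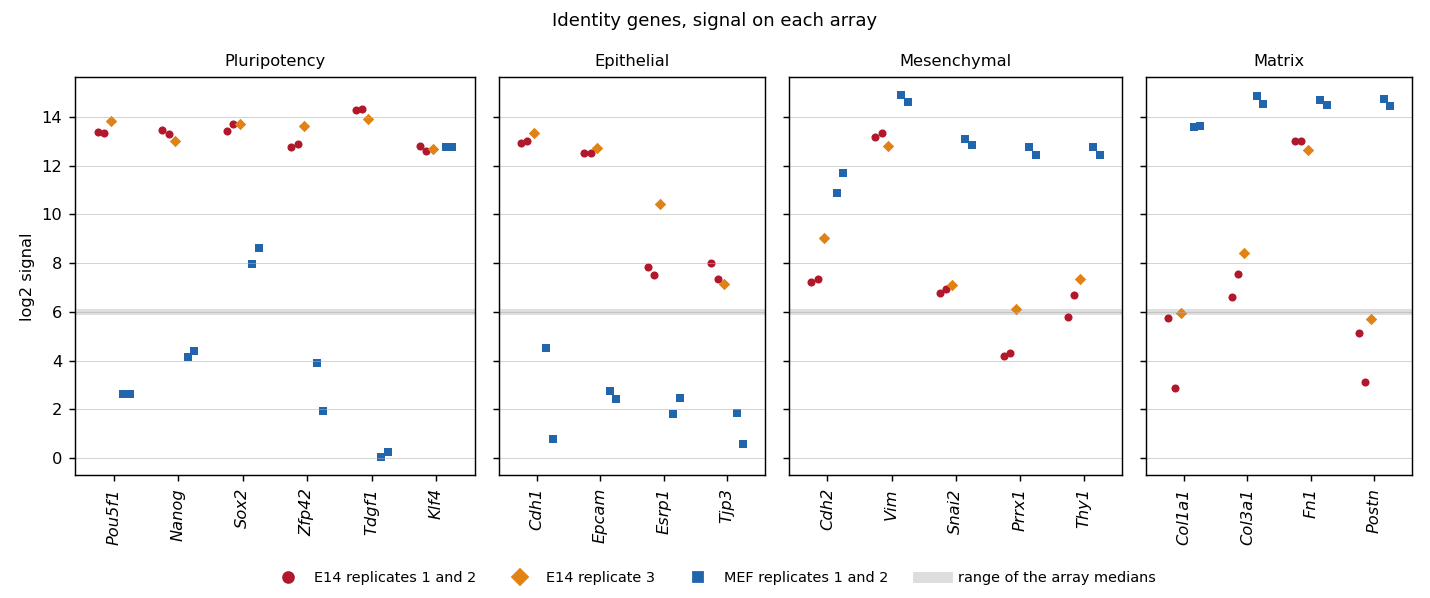
Log2 signal (vertical axis) on each of the 5 arrays for pluripotency, epithelial, mesenchymal and matrix genes, with E14 replicates 1 and 2 as red circles, E14 replicate 3 as an orange diamond, MEF as blue squares, and the range of array medians as a grey band. Klf4 is level in both cell types, Cdh1 lies above 12 log2 units on the E14 arrays and below the band in MEF, and Snai2, Prrx1, Thy1 and Postn show the opposite order.

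Adhesion genes separated the cell types in the same way. Of 35 tested genes of epithelial adhesion and junctions, 26 were higher in E14, none was lower and 9 were not called, with a median difference of 3.90. Cdh1, which encodes E-cadherin, gave 12.93, 12.99 and 13.36 against 4.54 and 0.78, a difference of 10.44 ± 0.74 (adjusted p = 5.86e-07) and at least 138-fold. Epcam, an epithelial adhesion molecule, gave 12.53, 12.53 and 12.74 against 2.76 and 2.44, at least 98.2-fold higher. Esrp1, an epithelial splicing regulator, gave 7.86, 7.5 and 10.42 against 1.80 and 2.46 (at least 6.11-fold higher), with E14 replicate 3 well above the other E14 arrays and a bound of 3.24-fold without it. Tjp3, a tight junction scaffold, was at least 2.85-fold higher. Without E14 replicate 3, 27 genes of the list were higher and 1 lower, and it lay at least 1 log2 unit above the others on 8 and below on 4.

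The promoter of Epcam is shown as an example of the E-box CACCTG, which repressors of the Snail and Zeb families can bind. It was counted together with CAGCTG, so the counts are not of that E-box alone. CACCTG or CAGCTG, on either strand, was found in 13 of 23 promoters of the epithelial list and in 2715 of 10652 (25.5%) of tested genes. The same held for 12 of 18 promoters of the muscle list. The stretch is chr17:87635779-87635978, plus strand, with matches starting 187 and 19 bases before the start.

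Epcam: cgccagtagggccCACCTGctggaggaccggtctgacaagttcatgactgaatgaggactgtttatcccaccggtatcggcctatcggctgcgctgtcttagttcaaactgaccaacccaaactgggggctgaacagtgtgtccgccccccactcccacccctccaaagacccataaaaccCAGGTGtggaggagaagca

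Mesenchymal transcription factors were lower in E14 in 38 of 45 tested genes, against 21.3% lower over all genes, and none was higher. Their median difference was -3.93. Snai2 (Slug), a zinc finger repressor of Cdh1, gave 6.79, 6.94 and 7.09 in E14 and 13.11 and 12.85 in MEF, a difference of -6.04 ± 0.30 (adjusted p = 4.6e-08). Prrx1, a homeobox factor of limb and craniofacial mesenchyme, gave 4.21, 4.30 and 6.12 against 12.79 and 12.46 (difference -7.75 ± 0.69, or -8.37 without E14 replicate 3). Twist1, a bHLH factor of mesoderm, gave 6.79, 6.63 and 5.47 against 11.02 and 11 (difference -4.72 ± 0.42). The E14 signals of Snai2 and Twist1 lay close to the array medians, and no E14 array reached a MEF array. Zeb1, a repressor of Cdh1, was lower (difference -2.38 ± 0.40, adjusted p = 0.000371). For Zeb2, another such repressor, the result depended on the probe set. The brightest of its 4 gave 6.04, 5.92 and 6.47 against 6.17 and 6.74 and was not called (adjusted p = 0.516), while the other 3, tested on their own, were called lower, with differences of -4.04 to -4.34. One of them gave 3.80, 5.83 and 4.94 against 8.89 and 9.37. On 8 of the 45 genes E14 replicate 3 lay at least 1 log2 unit above the other E14 arrays, and on 6 below. Tbx15 was at least 22.3-fold lower, the nuclear receptor gene Nr2f1 at least 15.4-fold and the forkhead gene Foxc2 at least 11.2-fold.

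Hox genes, the homeobox clusters that record position along the body axis, were mostly dim in E14. Of 39 listed, 33 had a probe set with 1 symbol and 26 passed the filter. Of these 23 were lower in E14 and 3 not called, and without E14 replicate 3, which lay at least 1 log2 unit above the other E14 arrays on 9 and below on 6, 2 were higher. Hoxc8 gave 0.02, 0.44 and 4.58 against 10.34 and 10.66, at least 22-fold lower in E14. Hoxb6 was at least 6.98-fold lower, Hoxc10 at least 3.81-fold and Hoxb5 at least 3.02-fold. The MEF signals of Hoxc8 exceeded their medians by more than 4 log2 units, and the E14 signals all lay below.

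Surface markers and receptors of fibroblasts were lower in E14 in 30 of 35 genes and higher in 1, with a median difference of -3.75. Thy1, a classical fibroblast antigen, gave 5.81, 6.68 and 7.36 against 12.77 and 12.46, a 64-fold lower signal (adjusted p = 8.06e-07). Both receptors for platelet-derived growth factor were lower, Pdgfra by 37.1-fold and Pdgfrb by 38.7-fold (24.7-fold without E14 replicate 3). Cdh11, a mesenchymal cadherin, gave 4.34, 5.30 and 7.08 against 14.36 and 14.18 (difference -8.70 ± 0.77, or -9.45 without E14 replicate 3 and -8.08 without E14 replicate 1). Cdh2 (N-cadherin), which mesenchymal cells use in place of E-cadherin, gave 7.24, 7.35 and 9.04 against 10.89 and 11.68 (difference -3.41 ± 0.56, adjusted p = 0.000313). Cd44, the hyaluronan receptor, was lower by 78.4-fold (a log2 difference of -6.29, or -6.91 without E14 replicate 3), and the collagen receptor gene Ddr2 by at least 73.5-fold. S100a4, often called fibroblast-specific protein, spread widely in E14, at 5.48, 1.65 and 8.77 against 12.18 and 12.41 (difference -6.99 ± 1.39, adjusted p = 0.00122), and its difference was -5.17 without E14 replicate 2 and -8.73 without E14 replicate 3. Over the list replicate 3 lay at least 1 log2 unit above the other E14 arrays on 9 genes and below on 5. Icam1, an adhesion molecule for leukocytes, was the exception and was 5.63-fold higher in E14, at 11.94, 11.95 and 11.07 against 9.31 and 9.01.

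The extracellular matrix set the fibroblasts apart most strongly. Of 25 tested collagen genes 23 were lower in E14, 2 were not called and none was higher, and their median difference of -5.50 was the lowest of the 41 lists. Their summed signal was 2942 to 6376 on the E14 arrays and 175864 to 196629 on the MEF arrays. Col1a1, a chain of type I collagen, gave 5.74, 2.87 and 5.96 against 13.60 and 13.63, at least 191-fold lower. Its partner chain Col1a2 gave 7.40, 7.71 and 9.25 against 15.04 and 14.60 (difference -6.70 ± 0.58). Col3a1, of type III collagen, gave 6.63, 7.56 and 8.42 against 14.87 and 14.54 (difference -7.16 ± 0.59). On 11 of the 25 genes E14 replicate 3 lay at least 1 log2 unit above the other E14 arrays, and on 2 it lay below. All E14 arrays nevertheless stayed far below both MEF arrays for these chains. Col8a1 was at least 154-fold lower, and Col5a2 182-fold.

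Enzymes that modify and crosslink collagen were lower in 18 of 24 genes, with none higher (1 without MEF replicate 1) and a median difference of -2.15. Lox, a lysyl oxidase, gave 7.47, 7.72 and 7.67 against 14.49 and 14.29 (difference -6.77 ± 0.45, adjusted p = 3.27e-07). Loxl1 was 50.3-fold lower, and P4ha3, a prolyl hydroxylase subunit, at least 13.7-fold.

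Matrix glycoproteins and proteoglycans were lower in 34 of 41 genes and higher in 2, and E14 replicate 3 lay at least 1 log2 unit above the other E14 arrays on 10 and below on 5. Postn (periostin) gave 5.13, 3.14 and 5.70 against 14.74 and 14.45, at least 377-fold lower and the largest bound among the 12 genes with the largest decreases. The elastic fibre genes Fbln5 and Mfap4 were at least 221-fold and 64.6-fold lower, and the laminin chain gene Lama4 at least 44-fold. Fn1 (fibronectin) differed far less, at 13.03, 13.01 and 12.66 against 14.70 and 14.49 (difference -1.69 ± 0.21, adjusted p = 4.07e-05), so the signal was high in E14 too. The 2 genes that were higher in E14 both encode basement membrane proteins, Lama5 (laminin alpha 5) by 2.83-fold and Nid2 (nidogen 2) by 2.65-fold. Mgp, matrix Gla protein, was at least 303-fold lower, Ccn4 at least 127-fold, the tendon gene Tnmd at least 94.9-fold and Pappa, a protease of IGF-binding proteins, at least 63.5-fold.

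Proteases of the matrix and their inhibitors were lower in 21 of 23 genes, with a median difference of -4.68. Serpinf1 gave 6.05, 6.91 and 7.87 against 14.29 and 14.06 (difference -7.23 ± 0.42). The metalloprotease genes Adamts5, Adam12 and Mmp13 were at least 47.5-fold, 23.5-fold and 12.5-fold lower. On 9 of the 23 genes E14 replicate 3 lay at least 1 log2 unit above the other E14 arrays. Without it 21 were still lower.

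**Figure D3:**
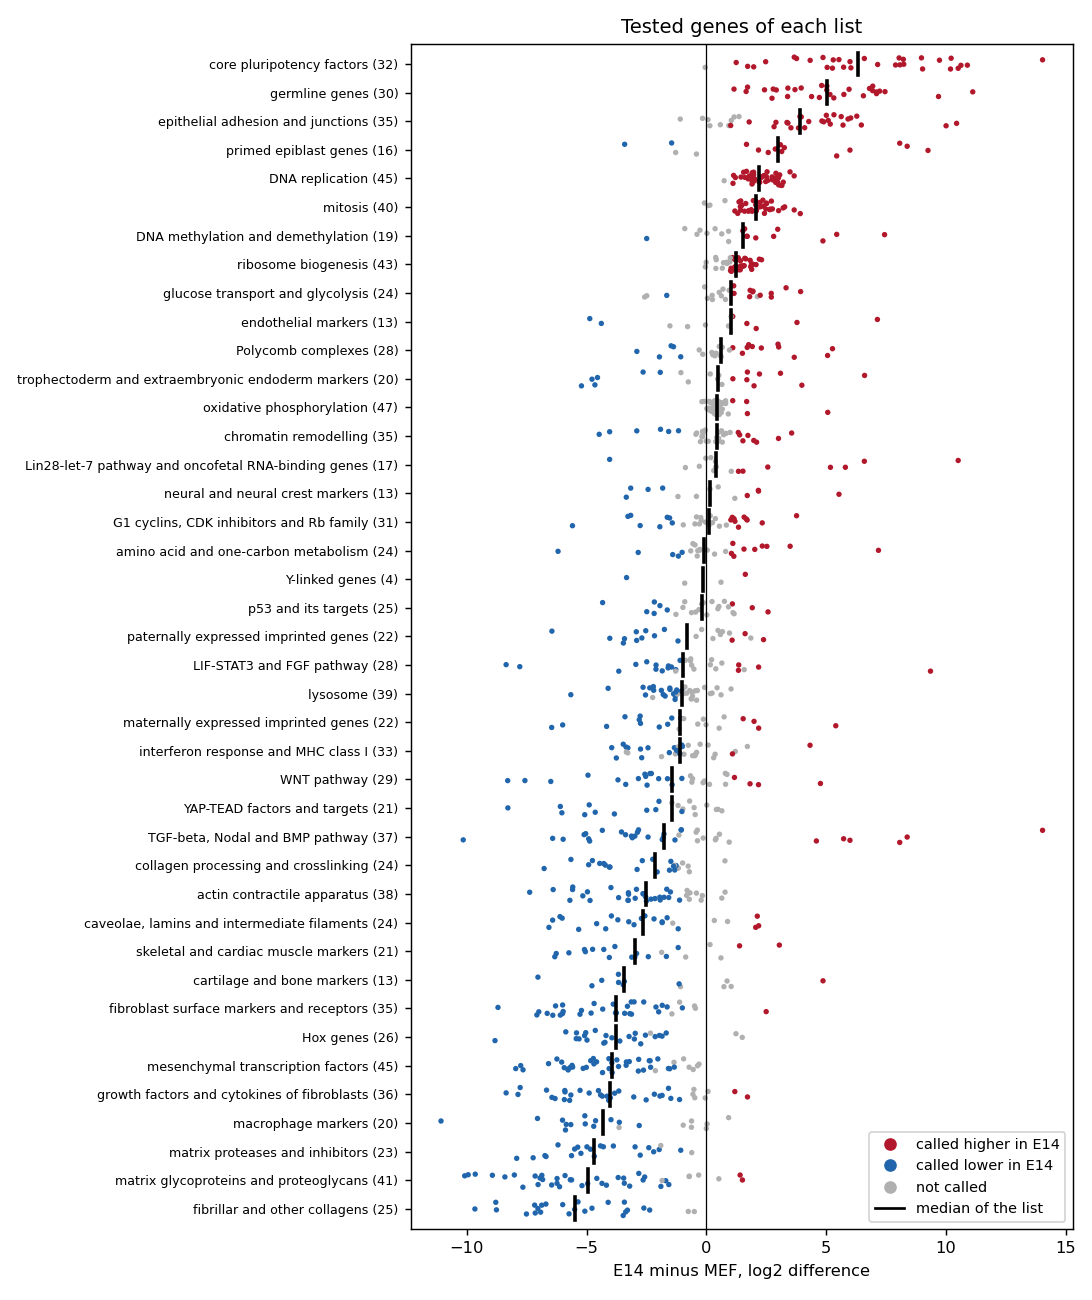
Log2 difference of E14 minus MEF (horizontal axis) for each tested gene of 41 gene lists, with the number tested in brackets, genes called higher in red, called lower in blue, not called in grey, and the median of each list as a black bar. Lists are ordered by median, from pluripotency factors at 6.31 to collagens at -5.50, and DNA replication genes form a narrow cluster around 2.19.

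The contractile apparatus was lower in E14 in 29 of 38 genes and higher in none, with a median difference of -2.52. Acta2, smooth muscle actin, gave 8.10, 8.53 and 10.90 against 15.02 and 14.72 (difference -5.70 ± 0.75, adjusted p = 6.31e-05). Tagln (transgelin) gave 7.36, 7.43 and 10.67 against 14.19 and 13.95 (difference -5.58 ± 0.87). Myl9, a myosin light chain of stress fibres, gave 6.17, 6.17 and 10.33 against 13.87 and 14.04 (difference -6.39 ± 1.01). In each of these 3 genes E14 replicate 3 lay more than 2 log2 units above the other E14 arrays and still below both MEF arrays. Over the list it lay at least 1 log2 unit above them on 11 of 38 genes and below on none. Without it 30 genes were lower and 1 higher, and the difference was -7.78 for Myl9, -6.67 for Tagln and -6.56 for Acta2. Without E14 replicate 1 or replicate 2 the difference of Myl9 was -5.70. Actg2, gamma smooth muscle actin, was at least 83.8-fold lower. Actb, the ubiquitous actin, gave 14.58, 14.35 and 14.72 against 14.86 and 14.58 and was not called (adjusted p = 0.461).

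Targets of YAP and TEAD, which respond to cell spreading and tension, were lower in 11 of 21 genes, not called in 10 and higher in none. Ccn1 (Cyr61), a secreted matricellular protein, gave 8.70, 9.12 and 9.14 against 14.07 and 14.05 (difference -5.08 ± 0.26). Ankrd1, a nuclear ankyrin-repeat protein, was at least 31.9-fold lower, and the receptor tyrosine kinase gene Axl 68.3-fold. Vgll3, a TEAD cofactor, varied over a wide range in E14, at -0.23, 3.67 and 7.91 against 11.87 and 12.25 (difference -8.28 ± 1.69, adjusted p = 0.00143). It was -6.28 without E14 replicate 1 and -10.35 without E14 replicate 3.

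Promoters of these genes are shown because their lists held more of 2 motifs than tested genes at large. GGAATG, the core bound by TEAD factors, was found on either strand in 12 of 17 promoters of the YAP-TEAD list, 9 of 33 of the contractile list and 1138 of 10652 (10.7%) of all. It was also found in 5 of 18 promoters of the muscle list and 3 of 9 of the cartilage and bone list. The contractile share was thus no higher than in those other lists. The CArG box, bound by serum response factor, was found in 8 of 33 contractile promoters and 124 of 10652 (1.16%). These 6 motifs, with CCAAT and also CACGTG described further on, were picked from 20 searched after their counts were seen, and the counts are descriptions without a test. Of the 6, a CArG box can hold CCAAT, and no other pair contains one another. The stretches are chr3:145649986-145650185 for Ccn1 (minus strand, match 103 bases before the start), chr19:36119845-36120044 for Ankrd1 (minus strand, 123 bases) and chr2:156775264-156775463 for Myl9 (plus strand, CArG box 161 bases before the start). Capitals mark the match, which in Ccn1 reads on the opposite strand.

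Ccn1: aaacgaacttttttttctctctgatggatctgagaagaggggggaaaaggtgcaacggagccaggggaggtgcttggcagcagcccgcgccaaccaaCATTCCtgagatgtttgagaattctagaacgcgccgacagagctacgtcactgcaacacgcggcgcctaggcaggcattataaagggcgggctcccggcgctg

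Ankrd1: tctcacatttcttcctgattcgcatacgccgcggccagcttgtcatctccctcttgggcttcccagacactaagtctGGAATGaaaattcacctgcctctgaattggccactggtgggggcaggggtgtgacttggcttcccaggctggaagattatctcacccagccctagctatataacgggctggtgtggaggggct

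Myl9: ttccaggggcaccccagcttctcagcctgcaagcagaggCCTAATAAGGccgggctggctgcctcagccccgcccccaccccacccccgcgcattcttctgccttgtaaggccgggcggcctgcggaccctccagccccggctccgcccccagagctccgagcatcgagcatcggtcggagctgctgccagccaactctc

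Genes of membrane caveolae, the nuclear lamina and intermediate filaments were lower in 18 of 24 and higher in 3. On 9 of them E14 replicate 3 lay at least 1 log2 unit above the other E14 arrays, and on 2 below. Cav1, the coat protein of caveolae, gave 5.49, 6.00 and 8.31 against 12.61 and 12.81 (difference -6.11 ± 0.75, or -6.96 without E14 replicate 3). Lmna, which encodes lamins A and C, gave 7.55, 7.27 and 9.29 against 12.11 and 12.37 (difference -4.20 ± 0.51, or -4.83 without it). All 3 genes that were higher in E14 belong to the nuclear envelope: Lmnb1 and Lmnb2, the B-type lamins, by 4.16-fold and 4.53-fold, and Lbr, the lamin B receptor, by 4.36-fold. Lmnb1 gave 12.13, 12.16 and 12.21 against 10.05 and 10.17, a narrow spread in both groups. The A-type lamin gene was thus lower and the B-type lamin genes higher in the same cells. Vim (vimentin), the filament protein of mesenchyme, was 3.11-fold lower but bright in both, at 13.18, 13.35 and 12.83 against 14.89 and 14.62.

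In the TGF-beta, Nodal and BMP pathway 22 of 37 genes were lower in E14 (59.5%, against 21.3% over all genes) and 6 higher (16.2%, against 20.9%). E14 replicate 3 lay at least 1 log2 unit above the other E14 arrays on 12 of the 37 and below on 2. Among those higher, besides Tdgf1, the ligand gene Nodal gave 11.50, 11.50 and 11.15 against 3.17 and 2.85 (at least 42.2-fold), and the Nodal antagonists Lefty1 and Lefty2 were 63.6-fold and at least 21.1-fold higher. Among those lower, the ligand gene Tgfb3 gave 1.15, 1.56 and 3.63 against 12.20 and 12.32 (at least 74.8-fold), Tgfb2 was at least 27.4-fold lower, and the receptor gene Tgfbr2 63-fold lower. Inhba, the activin A subunit, gave 5.54, 3.35 and 7.63 against 11.79 and 12.05 and was 85.3-fold lower. Its log2 difference of -6.41 became -5.34 without E14 replicate 2 and -7.48 without E14 replicate 3.

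In the LIF-STAT3 and FGF pathway 4 of 28 genes were higher (14.3%, against 20.9% over all genes) and 13 lower (46.4%, against 21.3%). Fgf4, the FGF that stem cells make for themselves, gave 11.76, 11.92 and 10.64 against 1.81 and 2.37, at least 43.9-fold higher. Etv5, a target of FGF signalling, was 4.53-fold higher and Socs3, a target and inhibitor of STAT3, 2.55-fold. Among those lower, the cytokine gene Il6 was at least 10.3-fold, the oncostatin M receptor gene Osmr at least 89.2-fold and the shared receptor subunit gene Il6st 7.70-fold lower. Lifr, the LIF receptor gene, gave 9.60, 9.74 and 10.61 against 9.88 and 9.65 and was not called (adjusted p = 0.613). It was named after its values were seen, as the receptor through which LIF acts on stem cells. On 11 of the 28 genes E14 replicate 3 lay at least 1 log2 unit above the other E14 arrays.

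In the WNT pathway 16 of 29 genes were lower (55.2%, against 21.3% over all genes) and 4 higher (13.8%, against 20.9%). The antagonist gene Dkk2 was at least 37.3-fold lower, Rspo3, which encodes an enhancer of WNT signalling, at least 45.8-fold, and the receptor gene Fzd1 30.7-fold. The ligand gene Wnt5a gave 3.55, 4.34 and 6.96 against 11.4 and 11.49 and was 90-fold lower. Its log2 difference of -6.49 became -5.79 without E14 replicate 1 and -7.50 without E14 replicate 3. Lef1, a transcription factor of the pathway, was 4.51-fold higher, and the receptor gene Fzd5 3.53-fold. Sp5, a direct WNT target, gave 6.2, 6.12 and 8.19 against 2.61 and 1.55 (at least 1.81-fold higher, or 1.13-fold without E14 replicate 3). Its signals on E14 replicates 1 and 2 lay close to their array medians. On 5 of the 29 genes replicate 3 lay at least 1 log2 unit above the other E14 arrays, and on 5 below.

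Secreted growth factors and cytokines of fibroblasts were lower in 29 of 36 genes and higher in 2 (1 without E14 replicate 1 or MEF replicate 2), with a median difference of -4.04. Their summed signal was 31311 and 29172 on E14 replicates 1 and 2, 20469 on replicate 3 and 136039 to 147535 in MEF. Replicate 3 lay at least 1 log2 unit above the other E14 arrays on 14 of the 36 genes and below on 6. Ptn (pleiotrophin) gave 6.30, 6.21 and 6.61 against 14.35 and 14.12 (difference -7.86 ± 0.58). Of the genes for IGF-binding proteins, Igfbp5 was 218-fold and Igfbp7 102-fold lower, while Igfbp2 was 3.28-fold higher, at 14.29, 14.19 and 13.08 against 12.04 and 12.24.

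Cell cycle genes were higher in E14 although both cell types had been sorted from the 2n peak. Of 45 tested DNA replication genes 44 were higher and 1 was not called, with a median difference of 2.19. Their summed signal was 257595 to 272288 in E14 and 58658 to 62015 in MEF, and E14 replicate 3 departed from the other E14 arrays by 1 log2 unit on 1 of the 45. Orc1, a subunit of the origin recognition complex, gave 10.74, 10.96 and 10.60 against 7.16 and 7.05 (difference 3.66 ± 0.19). Mcm10, a replication factor, gave 11.38, 11.55 and 11.33 against 8.09 and 7.77 (difference 3.49 ± 0.18). Gmnn (geminin), the licensing inhibitor, was 8.88-fold higher and Ung, uracil-DNA glycosylase, 9.23-fold. Every E14 array lay above both MEF arrays by about 3 log2 units in these genes.

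Of 40 tested mitosis genes 36 were higher and 4 not called, with a median difference of 2.07, and E14 replicate 3 lay within 1 log2 unit of the others on all 40. Espl1 (separase) gave 11.09, 11.09 and 10.79 against 7.18 and 6.98 (difference 3.92 ± 0.17, adjusted p = 2.37e-08). The spindle checkpoint kinase genes Ttk and Bub1 were 12.7-fold and 9.62-fold higher, and the kinetochore gene Spc24 9.21-fold. Whether the groups differed in the share of cells outside G1 was not tested.

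Cdk1, the mitotic kinase, gave 12.37, 12.26 and 12.65 against 10.66 and 11.01 (difference 1.59 ± 0.18) and is named here for its promoter, which was chosen after its values were seen. CCAAT, bound by NF-Y, was found on either strand in 24 of 32 mitosis promoters, in 14 of 19 of the amino acid list and in 3874 of 10652 (36.4%) of all. The stretch is chr10:69352913-69353112, minus strand, with matches 80 and 48 bases before the start, both on the opposite strand.

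Cdk1: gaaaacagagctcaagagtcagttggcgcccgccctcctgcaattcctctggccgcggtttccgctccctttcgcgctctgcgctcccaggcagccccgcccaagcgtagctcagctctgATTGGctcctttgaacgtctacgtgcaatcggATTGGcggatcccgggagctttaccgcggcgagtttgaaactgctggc

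Of 31 tested regulators of G1, 10 were higher (32.3%), 8 lower (25.8%) and 13 not called, against 20.9% and 21.3% over all genes. Without MEF replicate 1, 6 were higher and 4 lower, and without MEF replicate 2, 4 were lower. E14 replicate 3 lay at least 1 log2 unit above the other E14 arrays on 8 of them and below on 5. Ccnd2, a D-type cyclin, gave 7.09, 6.79 and 11.36 against 14.10 and 13.90 (difference -5.59 ± 1.04, adjusted p = 0.000763), with E14 replicate 3 more than 4 log2 units above the other E14 arrays. Its difference was -7.06 without that array and -4.93 and -4.78 without E14 replicates 1 and 2. Ccnd1, another D-type cyclin, gave 11.17, 11.10 and 12.31 against 11.58 and 11.94 and was not called (adjusted p = 0.64). Mycn, which stem cells express, gave 10.98, 10.60 and 12.96 against 7.57 and 7.93 (difference 3.76 ± 0.55, or 3.04 without E14 replicate 3). Myc gave 6.21, 6.63 and 10.36 against 11.08 and 10.94 (difference -3.27 ± 1.17, adjusted p = 0.0316). Its call rested on few arrays: without E14 replicate 3 the difference was -4.59, while without E14 replicate 1 (-2.51), E14 replicate 2 or either MEF array it was not called. Ccne1 (cyclin E1) gave 12.01, 10.82 and 12.95 against 10.24 and 10.29 and was 3.16-fold higher (adjusted p = 0.0434), a call lost without E14 replicate 1, E14 replicate 3 or either MEF array. The CDK inhibitor gene Cdkn2b was 8.92-fold lower. Cdkn1a (p21), a p53 target, gave 11.51, 11.73 and 10.38 against 12.59 and 13.09 and was 3.10-fold lower (adjusted p = 0.0374), a call that was lost without E14 replicate 3 or without either MEF array. Cdkn2a gave 8.23, 7.76 and 6.49 against 8.34 and 8.58 and was not called (adjusted p = 0.154). Among 25 tested genes of p53 and its targets, 3 were higher (12%) and 6 lower (24%), shares below and near those over all genes. Higher genes numbered 5 without E14 replicate 3 and 1 without MEF replicate 1. Tigar, a fructose bisphosphatase, was 5.94-fold higher and the death receptor gene Fas at least 5.17-fold lower.

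**Figure D4:**
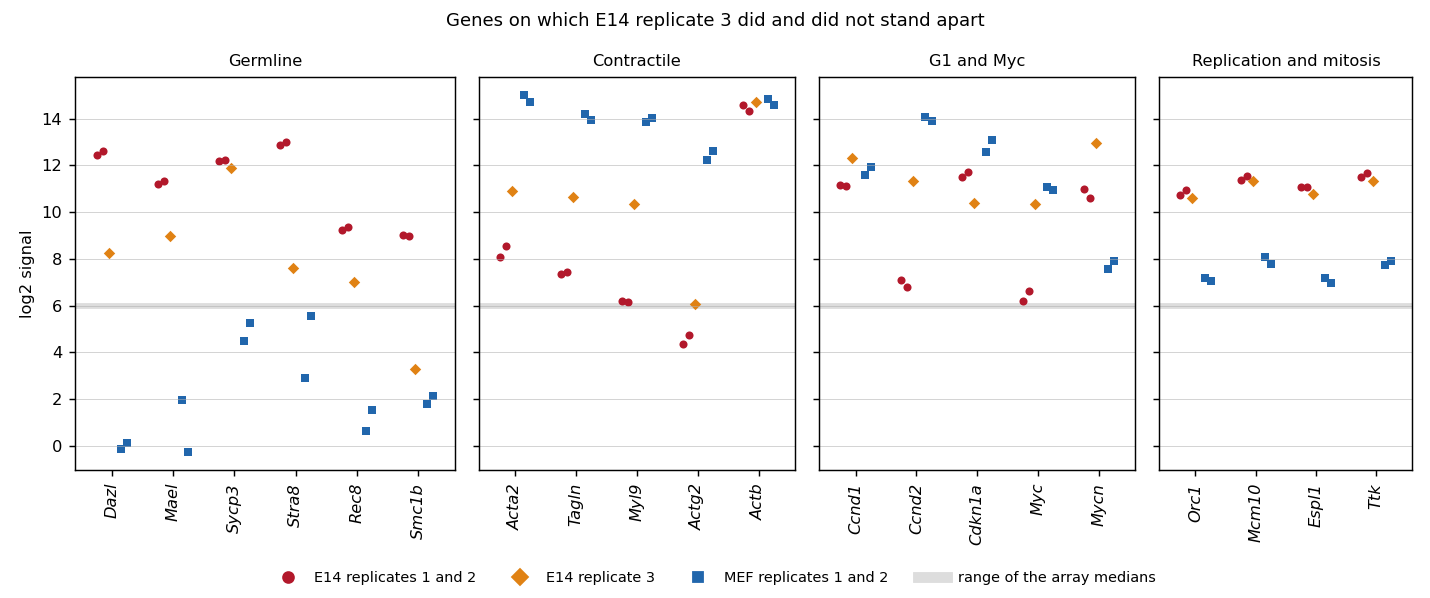
Log2 signal (vertical axis) on each array for germline genes, contractile genes, G1 and Myc genes, and replication and mitosis genes, with E14 replicates 1 and 2 as red circles, E14 replicate 3 as an orange diamond, MEF as blue squares, and the range of array medians as a grey band. E14 replicate 3 lies below the other E14 arrays for Dazl, Stra8 and Smc1b, above them for Myl9, Ccnd2 and Myc, and next to them for Orc1, Mcm10, Espl1 and Ttk.

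Germline genes, most of which act in meiosis or protect germ cells from transposons, were bright in E14 and dim in MEF. Of 35 listed, 32 had a probe set with 1 symbol and 30 passed the filter, and these 30 were called higher, with a median difference of 5.02. The size of the difference depended on the array. Dazl, an RNA-binding protein of germ cells, gave 12.44, 12.61 and 8.27 against -0.14 and 0.13, a difference of 11.11 ± 0.96 (adjusted p = 2.58e-06) and at least 34.8-fold. Mael, of the piRNA pathway, gave 11.20, 11.34 and 8.99 against 1.95 and -0.30, at least 23-fold higher. Rec8, the meiotic cohesin, gave 9.22, 9.35 and 7.02 against 0.63 and 1.53, at least 5.85-fold higher. In these genes E14 replicate 3 lay more than 2 log2 units below the other E14 arrays, and over the list it lay at least 1 log2 unit below them on 19 of 30 genes and above on 3. The summed signal was 59922 and 61343 on E14 replicates 1 and 2, 24941 on replicate 3, and 1515 to 1640 in MEF. Sycp3, of the synaptonemal complex, was an exception, at 12.20, 12.22 and 11.88 against 4.48 and 5.27 (at least 69.5-fold higher).

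The gaps of replicate 3 were wide for Stra8, the retinoic acid target that starts meiosis, at 12.89, 13.02 and 7.60 against 2.90 and 5.56. They were wide too for Smc1b, another meiotic cohesin, at 9.02, 8.99 and 3.29 against 1.78 and 2.11, where replicate 3 lay below its array median. Without it the bounds were 93.1-fold for Dazl, 39.0-fold for Mael and 9.87-fold for Rec8, and those of Stra8 and Smc1b went from 36.4-fold to 126-fold and from 2.17-fold to 8.11-fold. The bound of Dazl was 21.9-fold without E14 replicate 1 and 20.7-fold without replicate 2. For Stra8 these were 20.1-fold and 19.2-fold, and for Smc1b 1.11-fold and 1.13-fold. Stra8 and Smc1b were picked after their values were seen. Without replicate 3 the 30 genes were again called higher, with a median difference of 5.40. With either MEF array alone, 24 and 25 of the 30 were called higher.

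The promoter of Sycp3 is shown because CACGTG, the E-box core bound by Max, Mga and the USF and MiT factors, was found in 10 of 25 germline promoters against 909 of 10652 (8.53%) of all. It was also found in 10 of 34 lysosomal promoters (29.4%, against 40% of the germline promoters), whose genes moved the other way. Ctsd, a lysosomal gene picked after its values were seen, is therefore printed beside Sycp3. CACGTG reads the same on both strands. The stretches are chr10:88459387-88459586 for Sycp3 (plus strand, matches 64 and 43 bases before the start) and chr7:142387828-142388027 for Ctsd (minus strand, 98 bases).

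Sycp3: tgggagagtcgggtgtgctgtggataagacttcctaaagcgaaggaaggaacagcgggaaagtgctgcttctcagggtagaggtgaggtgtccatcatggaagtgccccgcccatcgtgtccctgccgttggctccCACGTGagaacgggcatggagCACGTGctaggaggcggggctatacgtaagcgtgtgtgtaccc

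Ctsd: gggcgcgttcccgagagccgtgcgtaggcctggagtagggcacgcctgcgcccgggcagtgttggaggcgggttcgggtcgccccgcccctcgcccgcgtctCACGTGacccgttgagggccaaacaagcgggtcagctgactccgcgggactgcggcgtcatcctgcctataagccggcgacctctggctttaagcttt

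DNA methylation genes were higher in 10 of 19 tested (52.6%) and lower in 1 (5.26%), against 20.9% and 21.3% over all genes. Without E14 replicate 3, 2 were lower. Dnmt3l, the cofactor of the de novo methyltransferases, gave 10.89, 10.99 and 11.80 against 3.05 and 4.54, at least 37.9-fold higher. Tet1, which oxidises 5-methylcytosine, gave 12.07, 11.97 and 13.03 against 7.46 and 7.53 (difference 4.86 ± 0.29). Dnmt1, the maintenance methyltransferase, was 3.26-fold higher and Hells, a remodeller that acts with it, 7.87-fold. Dnmt3a, the other de novo methyltransferase gene, gave no settled direction. Its brightest probe set gave 10.65, 10.35 and 12.60 against 9.67 and 9.54 (a 3.02-fold difference, adjusted p = 0.0429), and without E14 replicate 3 the log2 difference was 0.89 and not called, as it was not without either MEF array. Of its other 4 kept probe sets, 1 was called higher (difference 2.96), 1 was called lower, at 8.26, 8.24 and 7.44 against 9.53 and 9.22 (difference -1.39, adjusted p = 0.00215), and 2 were not called. With the mean of its probe sets the difference was 0.57 and not called. Mbd2, a reader of methylated DNA, was 5.62-fold lower.

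Polycomb genes were higher in 11 of 28 (39.3%) and lower in 5 (17.9%), against 20.9% and 21.3% over all genes. Cbx7, the stem cell form of the chromodomain subunit, gave 10.45, 10.5 and 10.67 against 5.04 and 5.52 (at least 23.5-fold higher), while Cbx6 was 2.78-fold lower. The PRC2 partners Jarid2 and Mtf2 were 12.7-fold and 8.09-fold higher and Epop at least 5.96-fold, and Phc2, of PRC1, was 7.47-fold lower. Among 35 chromatin remodelling genes 8 were higher (22.9%) and 6 lower (17.1%), close to the shares of 20.9% and 21.3% over all genes. Chd7, a chromodomain helicase, was 11.8-fold higher and Smarca2 (BRM), a catalytic subunit of BAF, 22.2-fold lower. Hmga2, an architectural factor and let-7 target, gave 9.27, 9.33 and 9.10 against 13.39 and 13.15 (difference -4.04 ± 0.26, adjusted p = 2.58e-07). Lin28a, which blocks the maturation of let-7, gave 10.97, 10.94 and 11.96 against 1.01 and 0.57, at least 39.7-fold higher. Of the 17 tested genes of the Lin28 and let-7 list 7 were higher and 1, Hmga2, was lower.

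Of 24 tested genes of glucose transport and glycolysis 11 were higher in E14 and 1 lower, with a median difference of 1.04. Slc2a3, a high-affinity glucose transporter, gave 14.83, 14.73 and 14.11 against 10.72 and 10.54 (difference 3.93 ± 0.20). Slc2a1 was 6.54-fold and hexokinase Hk2 6.52-fold higher. Pdk1, the kinase that shuts pyruvate dehydrogenase, gave 12.50, 12.62 and 12.73 against 9.40 and 9.19 (difference 3.32 ± 0.41). Pkm (pyruvate kinase) was 2.22-fold higher, and the muscle enolase gene Eno3 3.15-fold lower. Ldha, lactate dehydrogenase, gave 14.84, 14.82 and 14.04 against 13.71 and 13.53, which fell short of the 2-fold limit (difference 0.95 ± 0.37, adjusted p = 0.0453). E14 replicate 3 lay at least 1 log2 unit below the other E14 arrays on 6 of the 24 genes, and without it 14 were higher and 2 lower. Without E14 replicate 2, 2 were lower as well.

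Oxidative phosphorylation differed little: 4 of 47 tested genes were higher (8.51%, against 20.9% over all genes) and 43 were not called. Their median difference was 0.45. Cox7a1 gave 10.75, 10.59 and 9.38 against 4.88 and 5.47, at least 19-fold higher, and it encodes an isoform of cytochrome oxidase better known from muscle. Cox7c was 3.20-fold higher. Nnt, the mitochondrial transhydrogenase, was 2.52-fold lower, at 10.02, 10.19 and 10.02 against 11.32 and 11.50.

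Of 24 amino acid and one-carbon genes 9 were higher (37.5%) and 5 lower (20.8%), or 3 lower without E14 replicate 1 or MEF replicate 1. Over all genes these shares were 20.9% and 21.3%, so the lower share was near that of all genes. Gldc, of the glycine cleavage system, gave 11.12, 11.18 and 11.46 against 3.43 and 4.72, at least 38.6-fold higher. The folate enzyme genes Shmt1 and Mthfd1 were 11.3-fold and 5.75-fold higher, while the mitochondrial folate enzyme gene Aldh1l2 was 73-fold lower, at 6.43, 6.68 and 6.04 against 12.83 and 12.32. Ribosome biogenesis genes were higher in 31 of 43, with none lower and a median difference of 1.24. Dkc1 (dyskerin) gave 13.81, 13.70 and 13.69 against 11.51 and 11.35 (difference 2.30 ± 0.11), and without E14 replicate 3, 24 of the 43 were higher.

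Lysosomal genes were lower in 19 of 39 (48.7%, against 21.3% over all genes), with none higher and a median difference of -1.03. Lamp2, a lysosomal membrane protein, gave 11.34, 11.47 and 9.47 against 13.45 and 13.36 (difference -2.64 ± 0.46, or -2.00 without E14 replicate 3). Ctss, a cathepsin abundant in macrophages, was at least 16.1-fold lower. Ctsd gave 11.53, 11.45 and 10.79 against 12.55 and 12.71 (difference -1.37 ± 0.26). E14 replicate 3 lay at least 1 log2 unit below the other E14 arrays on 11 of the 39 genes, and without it 16 were lower and 1 higher.

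Interferon response and MHC class I genes were lower in 14 of 33 tested (42.4%) and higher in 2 (6.06%), against 21.3% and 20.9% over all genes. B2m, the light chain of MHC class I, gave 10.28, 10.51 and 9.86 against 13.96 and 14 (difference -3.76 ± 0.36, adjusted p = 5.39e-06). The interferon-induced genes Ifit3, Ifih1 and Ifit1 were at least 4.40-fold, 3.72-fold and 3.28-fold lower. Without MEF replicate 1 the count of lower genes was 7, and without either MEF array 1 was higher. The summed signal of the list was 17838 and 18507 on E14 replicates 1 and 2, 40047 on replicate 3 and 57851 to 61341 in MEF. Replicate 3 lay at least 1 log2 unit above the other E14 arrays on 9 of the 33 genes and below on 3.

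Imprinted genes are expressed from 1 parental copy, and many regulate fetal growth. Of 22 tested paternally expressed genes 11 were lower and 3 higher in E14, and of 22 maternally expressed genes 11 were lower and 4 higher. The lower share was thus 50% in both classes, against 21.3% over all genes, and the higher shares were 13.6% and 18.2%, against 20.9%. Without E14 replicate 2 or MEF replicate 2, 2 maternally expressed genes were higher. Igf2, the paternally expressed fetal growth factor, gave 6.92, 8.27 and 9.12 against 14.59 and 14.50 (difference -6.45 ± 0.57, or -5.85 without E14 replicate 1). Peg3 was 7.59-fold, Plagl1 10.7-fold and Dlk1 at least 12-fold lower. Meg3, the maternally expressed noncoding RNA of the Dlk1 cluster, was 3.91-fold lower, at 11.55, 11.60 and 12.56 against 14 and 13.74. Phlda2, a maternally expressed brake on placental growth, went the other way, at 11.62, 11.51 and 12.36 against 6.49 and 6.37 (difference 5.40 ± 0.33).

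The labelled sex was checked on the Y chromosome. Eif2s3y, a Y-linked translation factor gene, gave 12.01, 11.79 and 11.62 in E14 and 11.20 and 11.19 in MEF (adjusted p = 0.651), so it was bright on all 5 arrays. Uty gave 8.04, 8.03 and 8.75 against 9.04 and 9.31 (adjusted p = 0.287). Kdm5d, a Y-linked demethylase gene, gave 7.61, 7.65 and 3.62 against 9.67 and 9.58, where E14 replicate 3 fell below its array median, as it did for no other Y-linked gene tested. Its difference was -3.33 ± 0.99 (adjusted p = 0.0133) with all arrays and -1.99 without E14 replicate 3, and without either MEF array it was not called. Without E14 replicate 1 or 2 it was -3.99 or -4.01. Uba1y, the other Y-linked gene tested, gave 7.78, 7.50 and 6.18 against 5.78 and 5.28 and was at least 2.25-fold higher (adjusted p = 0.0367), a call lost without E14 replicate 1, E14 replicate 2 or either MEF array. E14 replicate 3 lay at least 1 log2 unit below the other E14 arrays on these last 2 of the 4 genes. Xist, the noncoding RNA that coats the inactive X chromosome of female cells, gave 7.43, 7.39 and 8.41 against 5.53 and 2.63, at least 3.39-fold higher in E14 (difference 3.67 ± 0.64, or 2.22 without MEF replicate 2 and 5.12 without MEF replicate 1).

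Markers of other cell types were measured in the same arrays. Macrophage markers were lower in E14 in 13 of 20 tested genes and not called in 7. Their summed signal was 1633 to 1943 in E14 against 15506 to 15920 in MEF. Lyz1 gave 2.91, 0.23 and 1.52 against 12.64 and 12.62, at least 96.4-fold lower in E14. Its log2 difference of -11.07 was the largest decrease of any gene, with every E14 signal below its array median. By bound, others such as Postn (at least 377-fold) were lower. Lyz2 was at least 48.8-fold lower, Cd14 at least 9.55-fold and C1qa at least 5.03-fold. Adgre1 (F4/80), a surface receptor of the lineage, gave 8.58 and 7.87 in MEF and was at least 4.55-fold lower in E14. Cd68, which macrophages also express, was level (difference 0.03) and not called, and was named after its values were seen. For Csf1r, the receptor of the macrophage growth factor, the result depended on the probe set. The brightest by the mean over all 10 arrays, most of them of stem cells, gave 7.10, 7.30 and 6.18 in E14 against 7.66 and 7.30. It was not called (adjusted p = 0.189). The other 2 were brighter than it in MEF and, tested on their own, were called lower. One gave 5.04, 5.76 and 4.98 against 9.55 and 9.87 (difference -4.45, adjusted p = 1.54e-06) and the other a difference of -3.85. Both were named after their values were seen. The part of macrophages in the lysosomal, interferon and MHC differences was not tested.

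Skeletal and cardiac muscle markers were lower in E14 in 15 of 21 and higher in 2, with sums of 5125 to 5538 against 12447 to 12882. Tnni1 was at least 11.4-fold and Myl1 at least 13.6-fold lower. Their part in the contractile differences was not tested. Cartilage and bone markers were lower in 8 of 13, with Col11a1 at least 94.3-fold lower, and higher in 1, Alpl (alkaline phosphatase), a marker that stem cells share with bone, at least 22.5-fold. Without MEF replicate 1, 5 were lower, and without E14 replicate 1 and replicate 3, 2 and 3 were higher.

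Endothelial markers were higher in 5 of 13 and lower in 2, and those higher numbered 3 without MEF replicate 1 and 2 without MEF replicate 2. With all arrays the shares were 38.5% higher and 15.4% lower, against 20.9% and 21.3% over all genes. Pecam1, which stem cells also express, was at least 6.64-fold higher, at 9.19, 9.18 and 7.78 against 3.27 and -0.11, and Emcn was at least 9.73-fold lower. Trophectoderm and extraembryonic endoderm markers were higher in 8 of 20 and lower in 6, and 5 were higher without E14 replicate 1, E14 replicate 2 or either MEF array. With all arrays the shares of this list were 40% higher and 30% lower. Tfap2c, which germ cell precursors and stem cells share with trophectoderm, was at least 28.2-fold higher, and the endoderm gene Dab2 23.3-fold lower.

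Neural and neural crest markers were higher in 4 of 13 and lower in 4 (30.8% each, against 20.9% and 21.3% over all genes). Here the MEF arrays differed from each other. On 5 of the 13 genes MEF replicate 2 lay at least 1 log2 unit above MEF replicate 1 and on none below, against 7.05% of all tested genes in either direction. Without MEF replicate 1, 2 genes were higher and 4 lower, and without MEF replicate 2, 5 were higher and 1 lower. Sox10, the neural crest factor, gave 6.88 and 8.70 in MEF replicates 1 and 2 and 4.08, 3.99 and 5.81 in E14, and its call as lower was lost without MEF replicate 2 (difference -3.16, or -2.25 without it and -4.07 without MEF replicate 1). Nefl, a neurofilament gene, gave 6.58 and 9.20 in MEF and 9.67, 9.88 and 10.63 in E14, and its call as higher was lost without MEF replicate 1, where the difference was 0.86 against 3.48 without MEF replicate 2. Stmn2 did not depend on the array and was 46.3-fold higher in E14, at 13.01, 13.02 and 13.22 against 7.44 and 7.66.

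Base composition around the start was compared between the called groups in 10652 tested genes with a promoter in the RefSeq table, over 300 bases (250 before to 50 after the start). A promoter was counted as CpG-rich when its observed to expected CpG ratio exceeded 0.6. This held for 69.7% of all, 68.6% of genes called higher, 62.6% of genes called lower and 72.7% of genes not called. It held for 42.4% of genes called higher by at least 4 log2 units and 39.8% of genes called lower by as much. These differences contain background where a group was dim. The widest measured differences in both directions were thus found at promoters with fewer CpG. By list, 19 of 25 germline promoters were CpG-rich, against 9 of 21 of pluripotency factors, 30 of 32 of mitosis genes, 6 of 19 of collagens and 1 of 14 of macrophage markers. TATAAA on the sense strand, 35 to 20 bases before the start, was found in 1.42% of all. It was found in 3.69% and 3.40% of genes called higher and lower by at least 4 log2 units.

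Other probe sets of a called gene often gave its direction without its call. In 2524 called genes the other kept probe sets numbered 4249, of which 3920 (92.3%) differed in the same direction, 2718 were called the same way and 51, in 48 genes, were called in the opposite direction. In 1381 of these genes (54.7%) every other kept probe set was called the same way. Of 265 called genes followed through the alternatives, 130 had more than 1 kept probe set, and only their differences could move with the choice of probe set. With the mean of its probe sets in place of the brightest, 55 genes moved by over 1.5 times and 7 were not called, while none changed sign. Among those printed, the difference of Epcam was 5.73 with that mean. Lin28a went from 10.50 to 7.18, Sall4 from 10.62 to 7.36, Igfbp5 from -7.77 to -4.87, Osmr from -7.79 to -5.17 and Fbln5 from -9.64 to -7.12. With each probe set tested on its own, 4646 of 23911 were called higher and 4863 lower (39.8% in all).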

How the data were processed

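RNA of 10 samples, extracted with RNeasy and labelled with biotin by the GeneChip 3′ IVT Express kit per the labels' protocols, was measured on GeneChip 430 2.0 arrays. Each deposited value is a signal intensity on a linear scale, 1 per probe set, computed by the authors with MAS5 according to the submitters' processing notes (no version named). The 2% trimmed mean of each array is 500, so values are relative within an array and a change in total RNA per cell cannot be seen.

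Signals were taken to log2. A probe set was kept when its signal lay above its array's own median on at least 2 of the 10 arrays, and a gene was represented by its brightest kept probe set with 1 symbol, by the mean over the 10 arrays. Of 45101 probe sets, 64 were controls, 932 had several symbols and 9160 had none listed. Groups were compared with limma 3.58.1 in R 4.3.3, in 1 fit of 3 group means over all 10 arrays (7 residual degrees of freedom, variance trend with signal), with two-sided p-values adjusted over the 13251 genes and thresholds of 0.05 and 1 log2 unit. The fit was tested on simulated data. Differences are E14 minus MEF with the standard error of the fit. Lists were described by counts and medians, without set tests. Nothing says that the arrays of a group came from separate cultures beyond the label of biological replicate. The p-values rest on the spread between arrays within the 3 groups pooled, the haploid arrays included, and not on that of E14 and MEF alone. A fit of E14 and MEF alone called 5280 genes. The comparison, its gene lists and its tests were chosen with earlier results of these data known.

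Genes are named by a rule: the 12 genes called with the largest difference in each direction, up to 4 called genes per list and direction, and a fixed set of identity, cell cycle, imprinted and sex-linked genes. Others are marked as picked after their values were seen. Gapdh, H19 and others without a probe set of 1 symbol are not reported, beyond the control ratios. Promoters came from RefSeq's GRCm38.p6 table, matched by gene ID. Alternatives were a fit of the 2 groups alone, no variance trend, quantile normalization, a floor at the array median, a pseudocount of 32, no filter, other choices of probe set, array weights, each array left out and a replicate block.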

Additional observations from a re-analysis of the deposited data

How the results depend on the processing

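Over the 15 alternatives the number of genes called for E14 against MEF stayed within 1.5 times the reported 5581, and ranged from 4960 with signals floored at the array median to 5961 with array weights when no array was left out. With single arrays left out it was 4791 to 5542, and a MEF group of 1 array was assumed to vary like the other groups. Genes called higher were 2294 to 3022 over the alternatives other than leave-outs and genes called lower 2649 to 2939. For each gene list the count in its leading direction was followed. Among lists of a pathway or cell identity, those that moved further than 1.5 times were genes higher among G1 regulators (6 to 10 over the leave-outs) and genes lower among interferon and MHC class I genes (7 to 16), both lowest without MEF replicate 1. Among the lists for other cell types and Y-linked genes, counts of 1 to 8 genes moved in several alternatives, as for trophectoderm and extraembryonic endoderm (4 to 8 higher). Counts in the smaller direction that moved with 1 array are given beside each list. Of 265 called genes followed, 220 were called under every alternative. The 1 gene of these 265 that reversed was Hnf4a, at 3.98 with the filter and -0.99 (adjusted p = 0.379) without it, where another probe set is taken. Among all 5581 called genes, 5 were called the other way under at least 1 alternative. The replicate numbers of E14 and MEF do not pair the samples (correlations of deviations from -0.04 to 0.04), and with a replicate block 5614 genes were called, 2801 higher and 2813 lower. Signals below the array medians limit every fold given as "at least".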
